A study of Sus scrofa with 15 samples.

Results

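In sow mammary tissue, 133 genes had a mean level at 2 d before parturition close to that at 14 d before it, and 1 d after parturition were at 0.0582 to 0.400 times the level of 2 d before. The genes were selected on these measured values out of 25322 genes listed in the count tables, of which 13503 were tested because they reached 1 CPM, counts scaled to 1e06 per library, in at least 3 of the 15 libraries. The selection used CPM after TMM normalization, a scaling of library sizes that sets aside the most extreme genes, and the mean of the 3 libraries of each time point. A gene was taken when its mean at 2 d prepartum was 0.67 to 1.5 times that at 14 d prepartum, its mean at 1 d postpartum was at most 0.4 times that at 2 d prepartum, its highest mean reached 5 CPM, and its 3 postpartum libraries lay below all 12 prepartum libraries. Of the genes tested, 10394 reached 5 CPM, 9024 of these were level between 14 and 2 d prepartum, 149 of those also fell, and 133 also had separate libraries. A name could be paired with 109 of the 133, and 24 have an identifier alone.

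Mammary gland was biopsied from 3 crossbred sows of the second parity at 14, 10, 6 and 2 d before parturition and at 1 d after it, and poly(A) RNA was sequenced in 15 libraries, 3 for each of the 5 time points. The sows belonged to a feeding trial, were biopsied under general anesthesia with lidocaine in the gland, and received Banamine, an anti-inflammatory drug, after every biopsy, so that the libraries of 14 d alone preceded its first dose. Each was given its own diet, and differences between sows may therefore be those of diet. By the approximate stages of gestation in the paper, the sows were allotted to the diets only after the earliest biopsy. The start of the diets can therefore not be told apart from the time between that biopsy and the later ones. The sows had been picked for a high colostrum yield, which limits how far the values extend to other sows. There was no group without parturition, and the time from parturition, the stage of pregnancy and the sampling occasion cannot be told apart. The libraries of a time point come from separate sows, and those of different time points come from the same 3 sows. Library totals ran from 13459054 (replicate 34 of 2 d) to 19952918 counts before parturition and from 10782343 to 15744454 after it, so that the ranges overlapped. The 10 genes with the highest counts held 16.6% to 35.7% of the counts of a prepartum library and 30.5% to 53.8% of a postpartum library, and the TMM factors of the libraries lay between 0.545 and 1.24. The 133 genes together held 0.996% to 1.98% of the counts before parturition and 0.243% to 0.367% after it. The epithelium of the labelled tissue was present in all libraries, with a summed level of 5 luminal epithelium markers of 1566 to 2665 CPM before and 2400.1 to 2881 CPM after parturition. In bulk tissue, fewer cells of a type and less RNA per cell cannot be told apart.

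In late pregnancy the mammary gland of the sow grows by the division of epithelial and stromal cells, and around parturition the secretory epithelium turns to the synthesis of colostrum and milk. Dividing cells copy their DNA in S phase with the help of licensing factors, helicases and histone chaperones, and separate it in mitosis with cyclins, kinases, kinetochores and a spindle of microtubules. Many of these genes are transcribed mainly in cycling cells, under the E2F and MYBL2/FOXM1 families of factors, and so serve as a measure of proliferation in a tissue. By known function, which was assigned after the values had been seen, 68 of the 109 named genes have a role in cell division. They comprised 13 genes of replication, repair and histone deposition, 6 transcription factors of the cell cycle, 19 cyclins, mitotic kinases and anaphase regulators, 10 genes of the kinetochore, centromere and chromosome structure, and 20 spindle proteins and mitotic kinesins. The other 41 named genes comprised 12 of the matrix, adhesion and growth factor signalling, 5 membrane transporters, 5 chaperone, antioxidant and proteasome genes (with the RNA-binding protein RBM3 counted among them), and 19 of other functions.

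**Figure D1:**
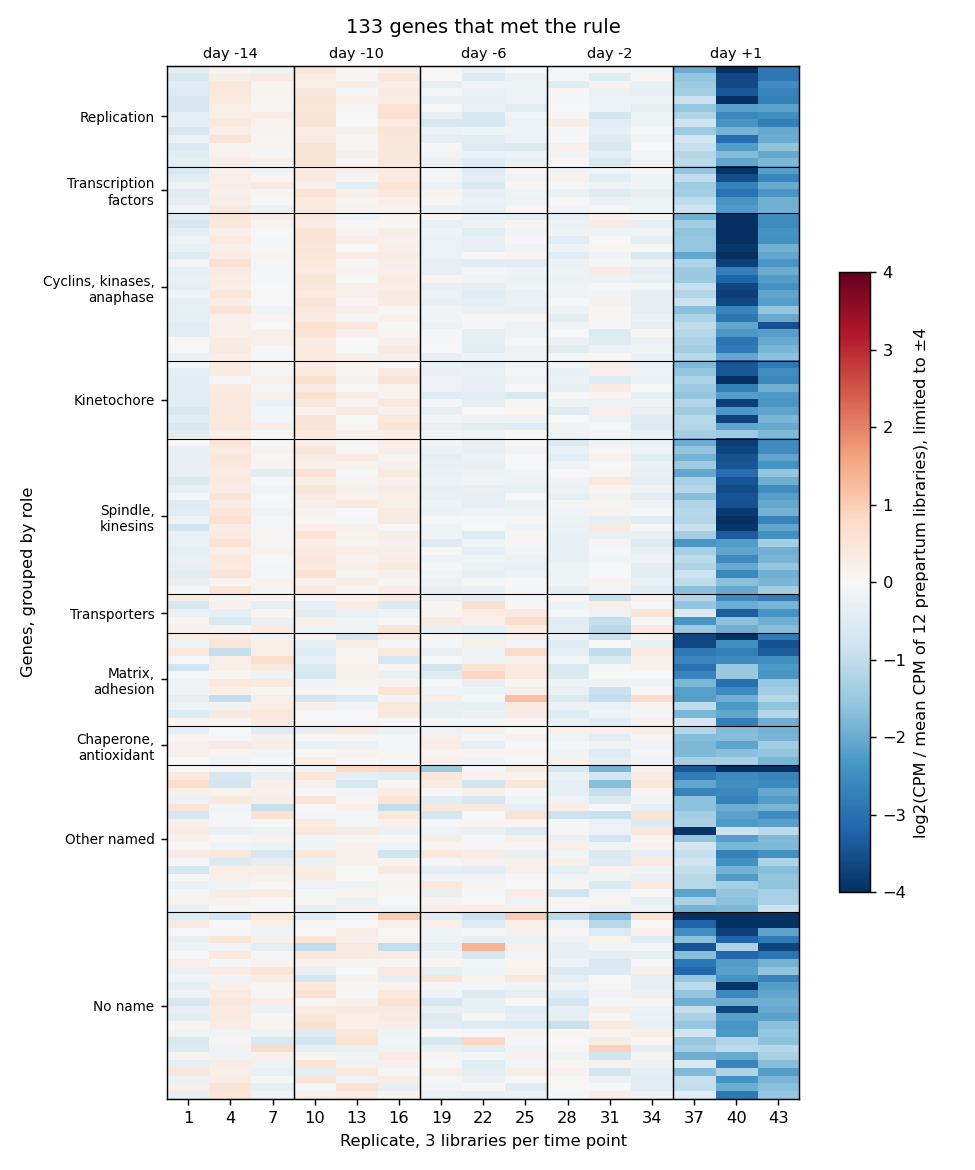
Level of each of the 133 genes (rows, grouped by role) in each of the 15 libraries (columns, 3 replicates per time point), as log2 of CPM over the mean CPM of the 12 prepartum libraries, with the colour limited to ±4. All 3 postpartum columns are blue in every row, and among the genes of cell division replicate 40 is the darkest column for 60 of 68.

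The fall at 1 d postpartum defines these genes and is given as a description. The ratio of the postpartum mean to that of 2 d prepartum had a median of 0.298, so the typical gene was 3.36-fold lower. On the log2 scale of the fitted model the median change of the 133 genes in the +1vs-2 time comparison was -1.80, from -4.43 to -1.29, beside a median of 0.02 over all genes tested. By the quasi-likelihood test of edgeR, 131 of the 133 were downregulated differentially expressed genes (DEG, with an adjusted p of 0.05 or less both over time and in the comparison) in +1vs-2, where 7.24% of all genes tested were, and 64 were with the 6 libraries of that comparison alone. Nothing is read from these counts because the selection used the same libraries. Libraries of 1 d postpartum all below the 12 prepartum libraries were found for 8.90% of the genes tested. The selected genes did not fall to zero: 3 had a postpartum mean under 1 CPM, and 8 had 3 counts or fewer in some postpartum library. The lowest prepartum library was 1.05 to 4.76 times the highest postpartum library, with a median of 1.72, and 38 genes had a gap of at least 2-fold. Before parturition the genes were not flat either: the highest of the 12 libraries was 1.36 to 6.73 times the lowest. Of the 133, 111 had a lower mean at 2 d than at 14 d prepartum, with a median of 0.866 for a ratio that the selection bounded. Over all genes tested, 51.6% had a negative log2 change in -2vs-14.

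**Figure D2:**
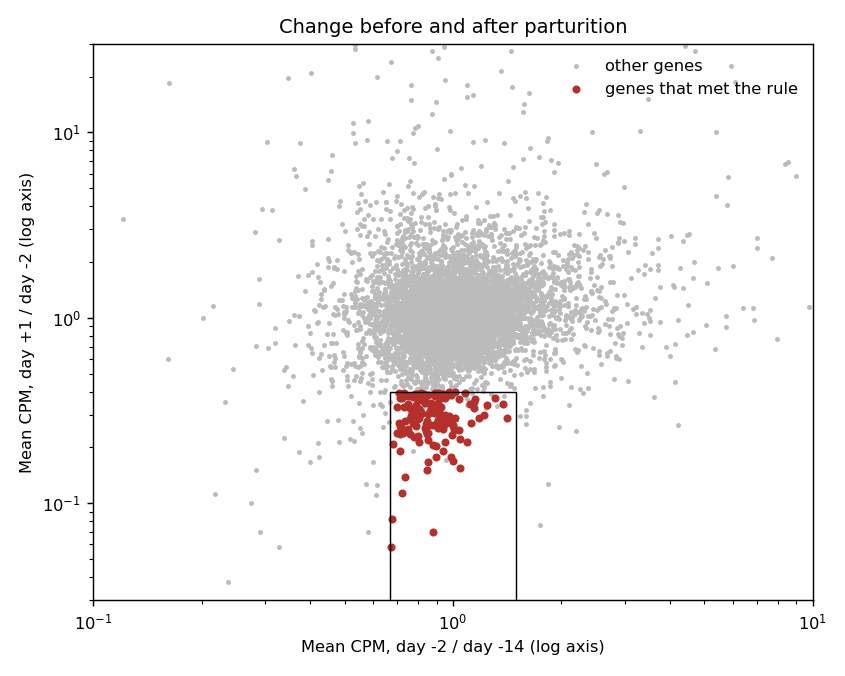
Ratio of mean CPM at day -2 to day -14 (horizontal, log axis) and at day +1 to day -2 (vertical, log axis) for the 10394 genes whose highest mean reached 5 CPM, 65 of which fall outside the axes, with the selected 133 genes in red inside the bounds of the rule. Grey points inside the bounds are genes whose postpartum and prepartum libraries overlapped.

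The bounds cut through a continuum. Just inside the limit of 0.4 lay FHDC1 at 0.400, NCAPG2 at 0.394 and STMN1 at 0.394, and just outside it ATAD2 at 0.407, GREB1 at 0.411, NRM at 0.413 and AURKB, an Aurora kinase of mitosis, at 0.415. At the lower bound for 2 d against 14 d prepartum, ZBED2 at 0.673 and TROAP at 0.682 were taken, and RXFP1 at 0.6696 and CCDC181 at 0.663 were not. At the upper bound PRDX3 at 1.41 was taken and RAC2 at 1.53 was not. A fall of the required size with separate libraries was also present in 37 genes that had already declined before parturition and in 6 genes that had risen. Scaling decided membership to a large degree: with total counts in place of TMM, 120 genes met the rule and 58 of the 133 were among them. Without replicate 37 of 1 d postpartum 191 genes met it, 130 of them from the 133, and without replicate 40 it was 112 genes, 99 of them from the 133.

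Among the replication genes the largest fall was that of ASF1B, a chaperone that hands histones H3 and H4 to the replication fork (chr2:65338638-65348235, plus strand, Sscrofa10.2). The 12 prepartum libraries of ASF1B had a median of 11.9 CPM, a lowest value of 9.53 and a highest of 16.7. Values of 11.5, 11.7 and 11.2 CPM at 2 d prepartum (replicates 28, 31 and 34) were followed by 3.06, 0.595 and 1.68 CPM at 1 d postpartum (replicates 37, 40 and 43). The 3 libraries of 2 d prepartum lay close together, whereas the postpartum libraries spread over a wide range with replicate 40 lowest, and the fitted change was -2.80 ± 0.33 log2 (± SE). CHAF1B, a subunit of the chromatin assembly factor that receives histones from ASF1 proteins, had the narrowest gap of all 133 genes, with a lowest prepartum value of 4.98 CPM in replicate 19 of 6 d prepartum against 4.77, 1.59 and 1.24 CPM after parturition. DTL, the substrate receptor of a ubiquitin ligase that removes the licensing factor CDT1 in S phase, was at 5.45, 1.29 and 2.12 CPM after parturition and 4.86-fold lower than at 2 d prepartum. TOP2A, the topoisomerase that untangles replicated chromosomes (chr12:22310214-22337485, plus strand), had the highest CPM of these 13 genes. Over the 12 libraries before parturition, TOP2A had 58.96 CPM at the lowest, 81.6 at the median and 112 at the highest. At 2 d prepartum replicates 28, 31 and 34 had 58.96, 91.9 and 68.3 CPM, and at 1 d postpartum replicates 37, 40 and 43 had 29.96, 6.74 and 14.8 CPM. UHRF1, which recognises half-methylated DNA behind the fork, fell 4.16-fold to 12.8, 3.17 and 5.19 CPM. The replicative helicase was represented by MCM2, MCM3 and MCM4, and MCM3 went from 48.03, 37.6 and 47.2 CPM at 2 d prepartum to 18.2, 13.6 and 12.3 CPM. RAD54L, a motor protein of recombination, was at 3.92, 2.58 and 2.05 CPM after parturition, below its lowest prepartum value of 6.32 CPM.

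Transcription factors of the cell cycle were 6 of the set. E2F8, a repressor of the E2F family that is itself an E2F target, showed the largest fall of these. Before parturition E2F8 lay between 5.64 and 11.96 CPM, with a median of 9.21 CPM over the 12 libraries. It was at 8.33, 8.35 and 9.67 CPM in replicates 28, 31 and 34 of 2 d prepartum, and at 3.06, 0.595 and 1.97 CPM in replicates 37, 40 and 43 of 1 d postpartum. TCF19, a factor linked to the passage from G1 to S phase, was 3.31-fold lower, at 4.596, 1.49 and 2.34 CPM. E2F1, MYBL2 and FOXM1, the activators of the S phase and mitotic programmes, and CDCA7 fell 2.63-fold to 3.60-fold, and these were named after their values had been seen. In all 6, replicate 37 had the highest and replicate 40 the lowest postpartum value.

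Among cyclins, mitotic kinases and anaphase regulators, TTK, the kinase that starts the spindle checkpoint (chr1:96792805-96828323, minus strand), had the largest fall. The 12 prepartum libraries of TTK had a median of 5.71 CPM, a lowest value of 4.03 and a highest of 8.13. Values of 4.63, 6.36 and 5.46 CPM at 2 d prepartum (replicates 28, 31 and 34) were followed by 1.53, 0.198 and 1.02 CPM at 1 d postpartum (replicates 37, 40 and 43). The lowest of these values rests on 2 counts, and the 3 postpartum libraries together held 25 counts against 259 at 2 d prepartum. CCNB3, a cyclin of the B type, had no count in replicate 40 of 1 d postpartum, where 3 counts would have been 0.297 CPM, and 2.38, 0 and 1.097 CPM in replicates 37, 40 and 43. CCNB2, which binds the kinase CDK1 at the entry to mitosis, was at 2.55, 0.298 and 1.39 CPM after 5.44, 7.45 and 5.68 CPM at 2 d prepartum. CDK1 itself went from 20.1, 22.3 and 15.5 CPM to 11.1, 1.59 and 4.39 CPM. PBK, a mitotic kinase, fell 4.93-fold, with 7.83, 0.595 and 4.53 CPM after parturition, NEK2, a kinase of centrosome separation, 4.31-fold, and BUB1B, a checkpoint protein that holds back the anaphase-promoting complex, 4.22-fold. ESPL1, the separase that cuts cohesin at anaphase, was at 4.26, 1.29 and 2.49 CPM and UBE2C, the conjugating enzyme of the anaphase-promoting complex, at 8.51, 1.39 and 4.39 CPM. In each gene of this paragraph for which 3 postpartum values are given, replicate 37 was highest and replicate 40 lowest.

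The 10 genes of the kinetochore, centromere and chromosome structure fell 2.54-fold to 5.67-fold. SGO1, the guardian of cohesin at the centromere, was 5.67-fold lower after parturition. Over the 12 libraries before parturition, SGO1 had 4.05 CPM at the lowest, 5.25 at the median and 6.79 at the highest. At 2 d prepartum replicates 28, 31 and 34 had 4.98, 6.23 and 4.43 CPM, and at 1 d postpartum replicates 37, 40 and 43 had 1.53, 0.496 and 0.731 CPM. NDC80, which ties the kinetochore to microtubules, fell 4.69-fold to 3.57, 0.992 and 1.901 CPM, and HJURP, the chaperone that loads the centromeric histone, 3.92-fold to 2.72, 0.198 and 1.097 CPM. The spindle group of 20 genes fell 2.54-fold to 4.77-fold. TROAP, a protein of spindle assembly, was lowest in ratio and went from 5.497, 7.14 and 6.57 CPM to 2.04, 0.595 and 1.39 CPM. DLGAP5, which bundles kinetochore microtubules, was at 7.66, 1.79 and 4.09 CPM and ASPM, a protein of the spindle poles, at 2.72, 0.893 and 2.34 CPM after parturition. KIF11, the motor that pushes the poles apart, was at 11.2, 2.78 and 5.85 CPM and KIF4A, a chromosome-bound kinesin, at 6.98, 1.09 and 4.17 CPM. In the spindle genes given so far replicate 40 was the lowest postpartum library throughout. KIFC1, the motor that draws poles together, differed in that replicate 43 was highest, with 1.36, 0.694 and 1.97 CPM. TPX2, the activator of Aurora A at the spindle, was at 15.1, 2.88 and 6.14 CPM, CKAP2, a microtubule stabiliser, at 7.83, 1.79 and 5.04 CPM and KIF20B, a kinesin of cytokinesis, at 8.17, 5.26 and 4.68 CPM.

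**Figure D3:**
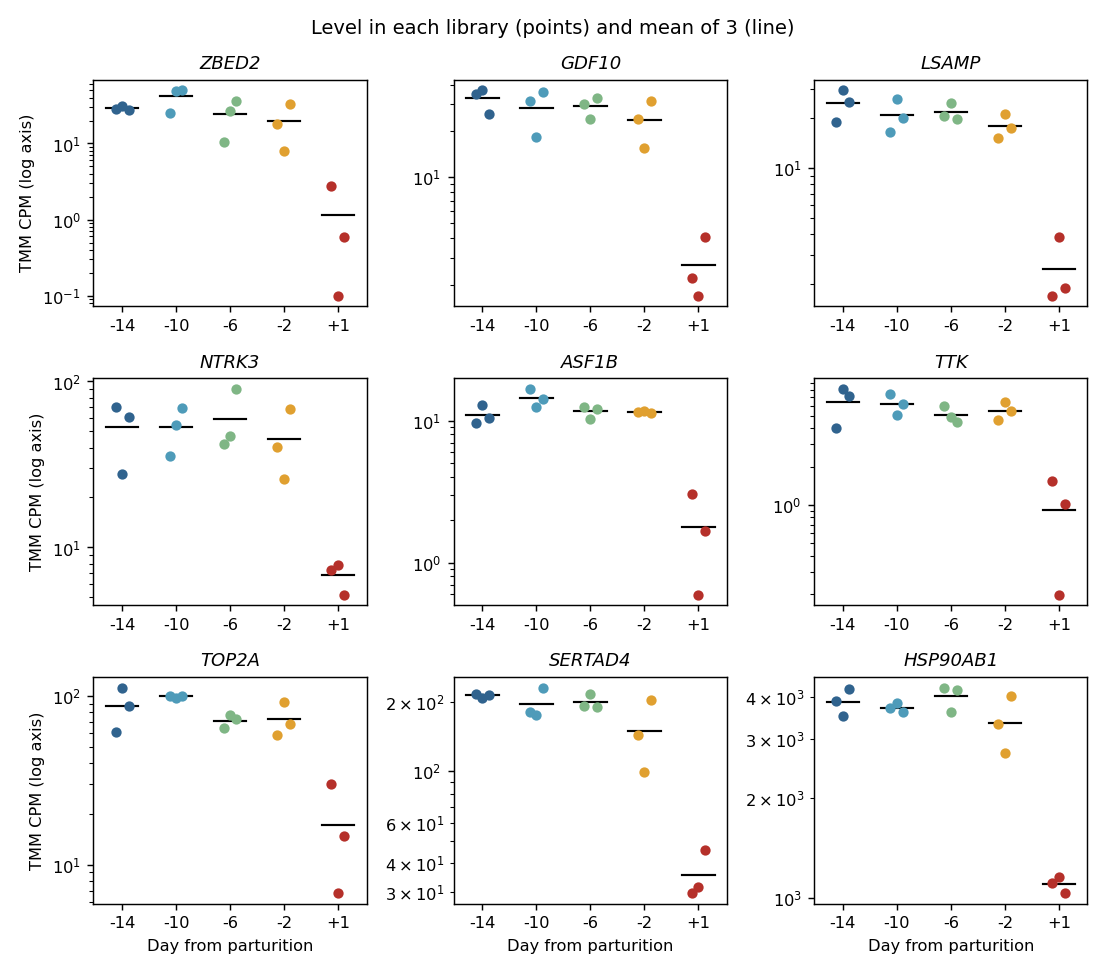
TMM-normalized CPM (log axis) of 9 of the 133 genes in each library (points) by day from parturition, with the mean of the 3 libraries of a time point (line). The postpartum points lie below all prepartum points in every panel, spread widely in ASF1B, TTK and TOP2A and lie close together in HSP90AB1, between 1033 and 1159.8 CPM.

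The genes outside cell division included the deepest falls among named genes. ZBED2, a zinc finger protein (chr13:158884947-158887196, plus strand), was 17.2-fold lower at 1 d postpartum. Before parturition ZBED2 lay between 7.93 and 50.4 CPM, with a median of 28.1 CPM over the 12 libraries. It was at 18.1, 7.93 and 32.6 CPM in replicates 28, 31 and 34 of 2 d prepartum, and at 2.72, 0.0992 and 0.585 CPM in replicates 37, 40 and 43 of 1 d postpartum. Replicates 31 and 34 of 2 d prepartum differed widely, and the postpartum values rest on 25 counts in all. GDF10, a secreted factor of the BMP and TGF-beta family (chr14:96148647-96160488, minus strand), followed with an 8.84-fold fall. The 12 prepartum libraries of GDF10 had a median of 30.6 CPM, a lowest value of 15.4 and a highest of 36.9. Values of 23.8, 15.4 and 31.4 CPM at 2 d prepartum (replicates 28, 31 and 34) were followed by 2.21, 1.69 and 4.09 CPM at 1 d postpartum (replicates 37, 40 and 43). The 3 postpartum libraries were alike beside the gap to the lowest prepartum library. LSAMP and CNTN1, adhesion proteins of the immunoglobulin family known from neurons, and NTRK3, the receptor of neurotrophin-3, also belonged to the set. Over the 12 libraries before parturition, LSAMP had 15.2 CPM at the lowest, 20.4 at the median and 29.6 at the highest. At 2 d prepartum replicates 28, 31 and 34 had 15.2, 21.4 and 17.5 CPM, and at 1 d postpartum replicates 37, 40 and 43 had 1.702, 3.87 and 1.901 CPM. Before parturition NTRK3 lay between 26.03 and 90.4 CPM, with a median of 50.8 CPM over the 12 libraries. It was at 40.4, 26.03 and 67.98 CPM in replicates 28, 31 and 34 of 2 d prepartum, and at 7.32, 7.84 and 5.19 CPM in replicates 37, 40 and 43 of 1 d postpartum. In LSAMP and NTRK3 all postpartum libraries lay far under the lowest prepartum one, and replicate 40, the lowest for most genes of cell division, was the highest of the 3. CNTN1 was at 0.851, 0.893 and 0.9504 CPM after parturition against a lowest prepartum value of 3.29 CPM. VWA2, a protein of basement membranes, was at 1.36, 3.87 and 2.19 CPM, with replicate 40 the highest of the 3. Other matrix genes of the set, named after their values had been seen, were PAPLN, VCAN, which encodes the proteoglycan versican, and ADAMTS9, a protease that cleaves it. PAPLN went from 294, 445 and 445 CPM to 68.8, 156 and 87.2 CPM, VCAN from 79.7, 100.4 and 110.1 CPM to 32.3, 27.2 and 50.4 CPM and ADAMTS9 from 40.5, 36.3 and 56.2 CPM to 31.5, 7.54 and 12.7 CPM. The summed level of 6 fibroblast markers was 3497 to 3997 CPM at 2 d prepartum and 1923 to 3622 CPM at 1 d postpartum, none of the 6 was a DEG by edgeR, and its part in the fall of matrix genes was not tested.

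FAM13A fell 5.64-fold to 40, 48.2 and 44.9 CPM. SERTAD4, of the SERTA family of transcriptional cofactors, fell 4.17-fold to 29.6, 31.7 and 45.5 CPM and MARK4, a kinase that loosens microtubules, 4.19-fold to 25.02, 19.4 and 17.9 CPM. In these 3 genes the prepartum libraries of 2 d were uneven, and replicate 31 was lowest: MARK4 was at 81.1, 32.2 and 148 CPM in replicates 28, 31 and 34. Transporters made up 5 genes, of which SLC44A4, a transporter of choline and thiamine pyrophosphate, was at 8.51, 6.15 and 7.24 CPM after 17.5, 11.2 and 30.6 CPM. SLC5A5, the sodium iodide symporter that moves iodide into milk, and SLC5A1, the sodium glucose cotransporter, were named after their values had been seen. SLC5A5 went from 57.8, 29.8 and 62.4 CPM to 25.02, 9.82 and 8.11 CPM. SLC5A1 was at 89.03, 13.5 and 25.1 CPM after parturition, so that replicate 37 stayed close to the lowest prepartum value of 98.8 CPM and the other replicates lay far below it. SLC5A1 and MEST, an imprinted gene that also stood on the adipocyte list, were the 2 genes of the set that were not DEG in +1vs-2, since the overall test of time was not passed. MEST had 0.511, 4.26 and 3.66 CPM after parturition, and here replicate 37 was the lowest.

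The group of 5 chaperone, antioxidant and proteasome genes, in which the RNA-binding protein RBM3 was also counted, stood at much higher levels. It was the most even group across the prepartum libraries, where the highest was 1.60 times the lowest for the median gene. HSP90AB1, the constitutive cytosolic HSP90 (chr7:45113269-45123953, plus strand), was measured at 3306, 2719 and 4027 CPM at 2 d prepartum and 1114, 1159.8 and 1033 CPM at 1 d postpartum, a change of -1.60 ± 0.14 log2 (± SE). PRDX3, a mitochondrial peroxiredoxin, went from 559, 578 and 591 CPM to 219, 147 and 132 CPM, and SOD1, the copper and zinc superoxide dismutase, from 514, 353 and 427 CPM to 179.8, 186 and 129 CPM. PSME1, a subunit of the proteasome activator PA28, was at 184, 201 and 212 CPM and RBM3, a cold-inducible RNA-binding protein, at 90.7, 72.3 and 119.5 CPM after parturition. All 5 were named after their values had been seen. HSP90AB1 has a close paralog, and reads that map to several places were left out of the counts, so its level is a lower estimate. Per kilobase of exon, the mean prepartum level was 636 CPM for PSME1, 561 for HSP90AB1 and 519.9 for SOD1, against 14.5 for TOP2A and 1.05 for ERCC6L, a helicase of anaphase DNA bridges with the lowest CPM of the set. Of genes with no name, ENSSSCG00000006350 (chr4:96888986-96908203, minus strand) had the highest prepartum level, 2959 to 5421 CPM, and was at 588, 953 and 1215 CPM after parturition. ENSSSCG00000008142 (chr3:51051816-51062808, plus strand) fell 14.4-fold, from 61.4, 38.98 and 192 CPM at 2 d prepartum, with replicate 34 far above the others, to 6.47, 5.65 and 8.19 CPM.

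The postpartum libraries differed among themselves, and differently for the genes of cell division and the rest. The median gene of cell division was at 0.397 of its prepartum mean in replicate 37, 0.105 in replicate 40 and 0.230 in replicate 43, while the median of the other named genes was at 0.298, 0.225 and 0.276. Replicate 40 was the lowest postpartum library for 60 of the 68 genes of cell division and for 97 of all 133. Replicate 37, in which the genes of cell division were highest, also had the lowest TMM factor, 0.545, and the largest share of counts on its 10 highest genes, 53.8%, and the part of this in the spread was not tested. When each postpartum library was set against the library of 2 d prepartum from the same sow, the median ratio of the 133 genes was 0.428, 0.198 and 0.272, in a direction that the selection fixes. Before parturition, replicate 1 of 14 d was the lowest of 12 libraries for 27 of the 68 genes of cell division, and replicates 10 of 10 d and 4 of 14 d were the highest for 36 and 20. Replicate 31 of 2 d prepartum was at 0.731 of the prepartum mean for the other named genes and at 0.951 for those of cell division.

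**Figure D4:**
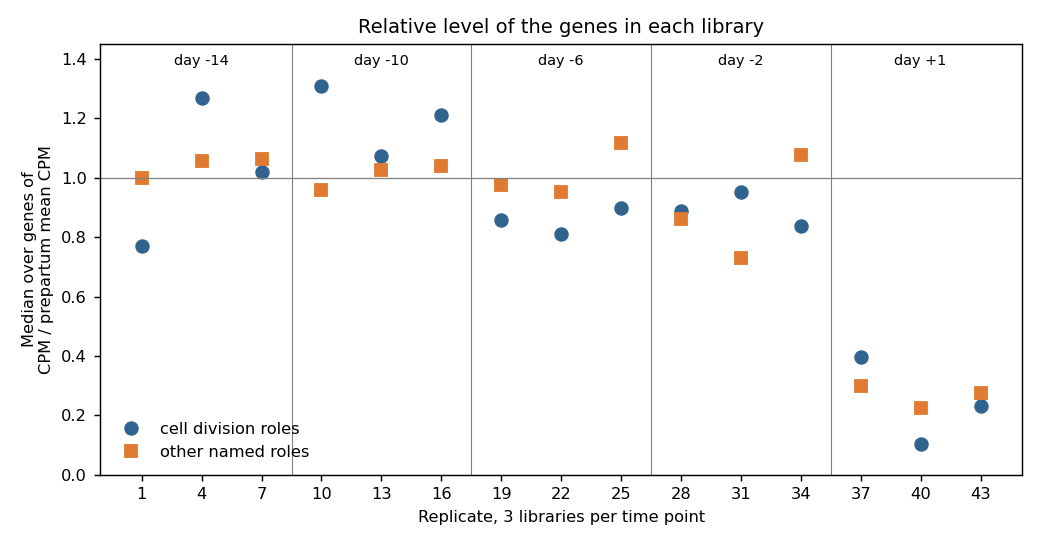
Median over genes of CPM relative to the mean of the 12 prepartum libraries (vertical) in each library (horizontal, 3 replicates per time point), for the 68 genes of cell division (circles) and the 41 other named genes (squares). The circles lie above 1 in all 3 libraries of day -10, below 1 in all 3 of day -6 and day -2, and spread from 0.105 to 0.397 at day +1.

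The comparison that the selection used least is that of 6 d with 10 d prepartum, since no ratio between them was set. These libraries had to lie above the postpartum ones, and their means counted towards the highest mean of 5 CPM. A gene near 5 CPM could pass that limit through 10 d alone, so for such genes the comparison is not free of the selection. Of the 133, 108 had a highest mean of at least 10 CPM, but the counts given here cover all 133, with the genes near the limit. The comparison asks whether the level stretch before parturition hides a movement. No gene passed the adjusted threshold of the edgeR test in -6vs-10, neither among the 133 (smallest adjusted p = 0.513) nor among all 13503 (0.00%), and DESeq2 called none of the 133, and 7 lower and 21 higher among all tested. Before adjustment, with p at 0.05 or below, 19 of the 133 were lower at 6 d, against 3.61% of all genes tested, and 2 were higher, against 3.45%. The count of 19 depended on single libraries and on the fit: it was 9 without replicate 10 of 10 d, 10 without replicate 22 of 6 d and 11 without replicate 16 of 10 d, 40 without replicate 37 and 40 without replicate 40 of 1 d postpartum, and 70 with the 6 libraries of the comparison alone. Over all genes tested the lower count moved too, from 487 to 337, 329, 246, 783, 581 and 979 in the same order. All 3 libraries of 6 d lay below all 3 of 10 d for 71 of the 133, against 10.4% of the genes tested, and above them for 4, against 9.80%. The median change was -0.37 on the log2 scale, from -0.88 to 1.01, beside 0.00390 over all genes.

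The lower level at 6 d was found among the genes of cell division and, to a smaller extent, among genes with no name. All 68 had a negative log2 change in -6vs-10, with a median of -0.47 and a range from -0.88 to -0.16, where 49.3% of all genes tested were negative. In 59 of them the libraries of 6 d lay below those of 10 d. The 68 genes moved together (median Pearson correlation 0.750 over pairs in the 12 prepartum libraries) and are not 68 separate observations. The 41 other named genes had a median of 0.04, 16 were below zero, and the libraries were separate in the lower direction for 3 and in the higher for 4. Of the 24 genes with no name 19 were below zero, with a median of -0.24, and in 9 the libraries were separate in the lower direction and in none in the higher. Within sows, the ratio of 6 d to 10 d for the median gene of cell division was 0.649, 0.742 and 0.752, and 68, 67 and 68 of the 68 genes were lower. Among the roles of cell division the genes of replication had the lowest median, -0.61, and 7 of the 13 had an unadjusted p of 0.05 or less. In CHAF1B the values were 12.2, 8.35 and 10.8 CPM at 10 d and 4.98, 5.06 and 6.996 CPM at 6 d prepartum, a change of -0.88 ± 0.35 log2 (± SE). MCM3 went from 61.4, 56.1 and 71.5 CPM to 42.7, 44.1 and 44.6 CPM, -0.53 ± 0.20 log2, and RAD54L from 12.4, 9.89 and 11.6 CPM to 7.85, 7.25 and 7.44 CPM, -0.59 ± 0.20 log2. SKA1, which couples kinetochores to shrinking microtubules, had the smallest p of the named set (edgeR, unadjusted p = 0.00336), with 7.89, 5.904 and 5.57 CPM at 10 d and 3.52, 3.73 and 3.399 CPM at 6 d. SKA1 is thus among the genes near the limit of 5 CPM, for which the comparison is not free of the selection. In each of these 4 genes the 2 time points did not overlap, and none of the adjusted p-values passed the threshold. COL27A1, a fibrillar collagen, was the 1 named gene among the 2 higher ones, at 8.79, 10.16 and 13.6 CPM and 18.03, 13.9 and 33.7 CPM, so that the time points were separate here too, though narrowly.

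**Figure D5:**
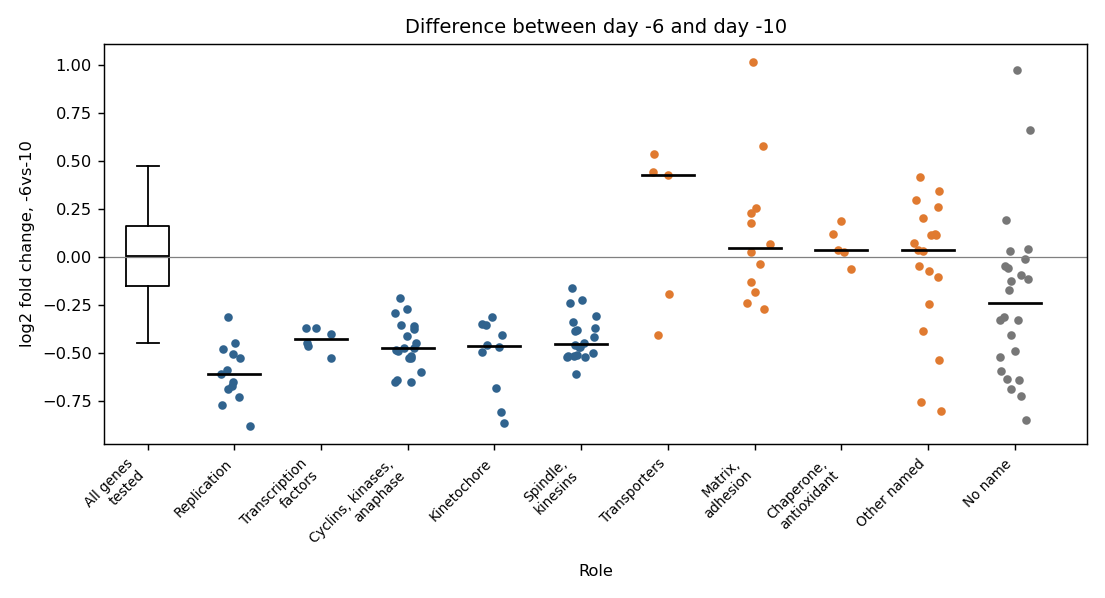
log2 fold change of 6 d against 10 d prepartum (vertical) for each of the 133 genes by role, with the median of a role as a line and, for all 13503 genes tested, a box of the quartiles with whiskers at the 5th and 95th percentiles. Every gene of the 5 roles of cell division (blue) lies below zero, between -0.88 and -0.16, and the other named roles (orange) lie on both sides.

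The highest mean of the 5 time points, which had to reach 5 CPM, fell at 10 d prepartum for 65 of the 68 genes of cell division and for 11 of the other 41 named genes. Counting all 133, it was at 14 d for 20, at 10 d for 90, at 6 d for 19 and at 2 d for 4. The share of all genes tested with the highest mean at 10 d was not computed, so nothing is read from these counts. In -10vs-14 and -6vs-14, 14 d prepartum entered the selection through its ratio to 2 d. In both, edgeR called none of the 133 and none of all genes (0.00% each). Of the 133, 3 and 6 had an unadjusted p of 0.05 or less by edgeR. Of all genes tested, 296 and 1189 did, in the same order. DESeq2 also called none of the 133 in these comparisons, and among all genes it called 36 lower and 86 higher in -6vs-14 and none in -10vs-14. Across the 12 prepartum libraries the genes of cell division moved together: the median Pearson correlation over pairs was 0.750, and 0.684 after the mean of each time point was taken off, over 12 libraries of 3 sows that share depth and scaling. Pairs of other named genes had a median of 0.199 and mixed pairs 0.031.

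Most of the cell cycle genes measured went the same way, in or out of the set. On a list of 44 cell cycle and DNA replication genes, 36 were tested, 31 were downregulated DEG in +1vs-2 and none was upregulated. Of these 36, 13 belonged to the 133, whose fall the selection fixed. Outside the set, 18 of 23 were downregulated DEG, beside 7.24% lower among all genes. The list was drawn up with earlier results of these libraries known. Its 23 genes outside the set were at 0.199 to 0.875 of the level of 2 d prepartum, and 21 of them missed the limit of 0.4, such as CDC45, a partner of the replicative helicase, at 0.628 and NUF2, which pairs with NDC80, at 0.435. All 23 also had a negative log2 change in -6vs-10, with a median of -0.31, where 49.3% of all genes tested were negative. Only 1 of the 23 was lower with an unadjusted p of 0.05 or less by edgeR, against 3.61% of all genes. The direction at 6 d, though not its size, was thus shared by the genes of the list outside the set. On 13 other lists of hormone signalling, matrix, immune, transport and milk genes, the 133 appeared with SLC44A4 and MEST alone. Milk protein and milk fat genes had 5 of 16 upregulated and none downregulated, with a median change of 1.22 log2, where 1081 of all 13503 genes were upregulated. CSN1S2, WAP, PAEP, PLIN2 and ACACB of that list had no entry of that name among the genes tested. Among the marker lists, 2 of 5 luminal and 2 of 4 myoepithelial markers were upregulated and none downregulated. Among B and plasma cell markers 1 of 5 was downregulated, and 1 of 3 adipocyte and 1 of 2 skeletal muscle markers were upregulated. Common markers such as KRT19, KRT5, KRT14, ADIPOQ, FABP4 and LEP were not among those tested. Of the endothelial, T and NK cell, macrophage, granulocyte, mast cell and erythrocyte markers none was called in either direction, with summed levels of 680.03 to 741 and 533 to 691 CPM for the endothelium before (2 d) and after parturition. The 1 marker of nerve glia tested was not called either. It was at 0.231 to 0.664 CPM at 2 d prepartum and at 0 to 0.0731 CPM after parturition, a change of -3.36 log2 close to the floor.

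In position the genes were spread over all 18 numbered chromosomes and X, with at most 14 on one of them (chromosome 1, which held 1179 of the genes tested), and 10 lay on unplaced scaffolds. PBK, BUB1B and TPX2 each had another gene of the set within 100 kb, at 11663, 55441 and 14128 bases, on the opposite strand in all 3 cases, and the counting kept strands apart. The exon length had a median of 2621 bases, against 2046 for all genes tested.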

How the data were processed

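RNA of 15 mammary biopsies, 3 at each of 5 time points, was sequenced from 1 end in stranded libraries. Per the file headers, the authors counted reads on exons per gene with featureCounts 1.5.0, reverse-stranded and with the Ensembl annotation of Sscrofa10.2 (the methods name RefSeq), and deposited raw counts. The labels' processing notes also name STAR 2.5.1b. Total counts of 10782343 to 19952918 set the precision. Time points were taken from the labels.

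CPM and tests were computed in R 4.3.3 with edgeR 4.0.16 (TMM, glmQLFit, glmQLFTest, 15 libraries, time as factor). A DEG had Benjamini-Hochberg adjusted p of 0.05 or less over 13503 genes, both in the overall test of time and in the comparison. An SE is the size of the log2 change over the square root of its F statistic. Replicates are separate sows. The sow of a library was read from a supplementary list by its total count and used in alternatives and within-sow ratios only: deviations from time means correlated at 0.373 on average within sow (30 pairs). No 2 libraries of a time point were the same (16072 or more genes differed).

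The members and lists were chosen with earlier results of these data known. Named are the 30 named genes with the lowest ratio of 1 d postpartum to 2 d prepartum, named genes on the lists, and 2 identifiers, beside genes said to be named later. Names came from a table of identifiers (11804 of 25322). Genes near a limit, and CHAF1B, MCM2, MCM4, SKA1, COL27A1, ERCC6L, CDC45 and NUF2, were named after their values were seen. DESeq2 1.42.0, limma 3.58.1, other scaling and filters, thinning (seed 20), the sow as a block and each library left out were alternatives. The script was tested on simulated data. No sequences were used here. Some results are not reported here.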

Additional observations from a re-analysis of the deposited data

How the results depend on the processing

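With other limits on the fall, 68 genes (at most 0.3 times the level of 2 d prepartum) and 205 genes (at most 0.5 times) met the rule in place of 133. Over the libraries left out in turn, the number ran from 112 (without replicate 40 of 1 d postpartum) to 191 (without replicate 37). Total counts without TMM gave 120 genes, of which 58 were among the 133, and moved the median of all genes in +1vs-2 from 0.02 to -0.22 log2 and the DEG of that comparison from 978 lower and 1081 higher to 1808 lower and 382 higher. The 133 genes then had a median of -2.09 log2.

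Of the 133, 131 were downregulated in +1vs-2 with all 15 libraries in the fit and 64 in a fit of the 6 libraries of that comparison alone. Leaving out a library gave 106 (without replicate 43 of 1 d postpartum) to 130. The median log2 change of the set in +1vs-2 ran from -2.09 to -1.56. In -6vs-10, -6vs-14 and -10vs-14 the count of called genes in the set was 0 under every alternative run, with 0 and 0 as the range over libraries left out, while with the sow as a replicate block 22 were lower and 6 higher in -6vs-10 at an unadjusted p of 0.05 or less, in place of 19 and 2. That count was 70 and 5 with the 6 libraries alone, 47 and 1 with total counts, 44 and 5 in limma-voom (sow as random) and 29 and 2 with DESeq2, and over libraries left out the lower count ran from 9 (without replicate 10 of 10 d) to 40 (without replicate 37 or replicate 40 of 1 d postpartum). Over all genes tested it moved as well, from 487 lower and 466 higher to 727 and 745 with the block. It was 979 and 890 with the 6 libraries, 719 and 114 with total counts, 825 and 749 in limma-voom and 575 and 516 with DESeq2. In +1vs-2 the same block called 132 of the set and in the comparisons of 6 and 10 d it called none. Over all genes the block moved the calls in -6vs-14 from 0 to 7 lower and 56 higher, in -6vs-10 from 0 to 1 higher and in -2vs-14 from 121 lower and 263 higher to 488 and 684. The median of the genes of cell division in -6vs-10, an outcome added after the data had been seen, ran from -0.55 to -0.38 over libraries left out and was -0.59 with total counts, where all genes had moved by -0.11. The other 171 values (the size of the set, its calls after adjustment and its medians) under alternatives kept their direction and stayed within 1.5 times (counts) or 1 SD (medians) of the reported value, and the cause of the changes was not tested. Many of these values are counts of 0 that stayed 0 in -6vs-10, -6vs-14 and -10vs-14. The size of the set was judged by its number alone. It stayed within the limit without TMM, at 120 genes, although only 58 of the 133 were among them. With 3 libraries per time point and postpartum values of a few counts, falls of low genes are imprecise.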
